A study of Mus musculus with 2 samples.

Results

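The genes described here are the replication-dependent H2A and H2B histone genes of the mouse, defined as the protein-coding genes of GENCODE M1 (genome mm9) whose symbol starts with Hist, a cluster number and h2a or h2b. They number 37 of the 22380 protein-coding genes and of the 37310 annotated genes in all, with 19 H2A and 18 H2B genes. Non-polyadenylated (NPA) RNA was sequenced with strand information from R1 male mouse embryonic stem cells (ESCs) at passage 18, which were grown with leukemia inhibitory factor over mouse embryonic fibroblasts stopped from dividing with Mitomycin C, and from neuronal progenitor cells (NPCs) derived from the same line. The NPCs were collected on day 7, after 4 days as embryoid bodies without the factor and replating on poly-L-ornithine and fibronectin in medium with ITS, an insulin supplement. Both libraries come from RNA left after 3 rounds of poly(A) removal and 1 round of ribosomal RNA removal. With 1 library per cell type there is no replicate error, no test was made, and each ratio compares these libraries rather than the cell types. Intervals are exact 95% intervals and cover counting error only, since PCR copies cannot be told from separate molecules.

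H2A and H2B form the dimers that flank the H3-H4 tetramer of the nucleosome, and their genes are read mainly during S phase, when new chromatin is made. The mRNAs have no poly(A) tail. Their 3′ end is made by a cut a few bases behind a conserved stem-loop, which the stem-loop binding protein SLBP holds, and this stem-loop takes over the roles that the tail has in other mRNAs. Many copies of each gene lie in clusters, often as an H2A and an H2B gene that start back to back from a shared promoter.

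The clusters lay on 3 chromosomes. On chromosome 13 there were 14 H2A and 15 H2B genes (Hist1), on chromosome 3 there were 4 H2A and 2 H2B genes (Hist2), and on chromosome 11 there was 1 of each (Hist3). A stem-loop of 16 bases was found behind the stop codon of 35 genes, 22 to 59 bases downstream, and 34 of them matched the histone consensus at every base. No match was found behind Hist2h2be or Hist1h2al. The stem-loops are printed for a gene with each of the 4 versions found and for Hist2h2bb, since they fix the processed end from which read positions are measured in the results. Capitals mark the stem-loop, and all sequences of this kind are read 5′ to 3′ on the gene strand of mm9.
Hist1h2bg, chr13:23663705-23663734, plus strand: acccaaaGGCTCTTTTCAGAGCCacccata
Hist2h2bb, chr3:96074087-96074116, plus strand: cccaaaaGGCTCTTTTCAGAGCCactttag
Hist1h2bb, chr13:23839065-23839094, plus strand: acccaaaGGCTCTTTTAAGAGCCacccaca
Hist2h2ac, chr3:96024334-96024363, minus strand: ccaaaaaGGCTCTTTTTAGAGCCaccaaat
Hist1h2an, chr13:21878640-21878669, minus strand: aaacaaaGGCTCTTTTCAGAGCTaacacat

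The first version, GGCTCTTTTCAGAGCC, was found in 28 genes (15 H2A and 13 H2B), the version of Hist1h2bb in 5 genes (1 H2A and 4 H2B), and those of Hist2h2ac and Hist1h2an in no other member. The letters AAAGAG, the core of the downstream element that pairs with U7 snRNA, stood within 30 bases behind the stem-loop of 6 of the 35 genes, 4 H2A and 2 H2B. That count says only where these exact letters are.

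A second set of sequences shows coding bases that were among the most frequent starts of reads in both libraries together. Base 1 is the first base of the start codon, and capitals mark the start sites. For H2B the sites were bases 154 to 156, shown in stretches from base 132 to 191, and base 314, shown from base 292 to 351.
Hist1h2bg, bases 132 to 191, chr13:23663433-23663492, plus strand: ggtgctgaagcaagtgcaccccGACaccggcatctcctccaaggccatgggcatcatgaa
Hist2h2bb, bases 132 to 191, chr3:96073806-96073865, plus strand: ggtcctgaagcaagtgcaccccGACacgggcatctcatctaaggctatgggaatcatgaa
Hist1h2bg, bases 292 to 351, chr13:23663593-23663652, plus strand: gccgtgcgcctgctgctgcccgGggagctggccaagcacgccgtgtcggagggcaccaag
Hist2h2bb, bases 292 to 351, chr3:96073966-96074025, plus strand: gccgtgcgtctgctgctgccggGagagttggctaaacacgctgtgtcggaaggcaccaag

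For H2A the sites were bases 204 to 213, shown from base 182 to 241, and bases 327 to 332, shown from base 305 to 364. Bases 339 and 372, with 895 and 360 starts and with 749 and 1064, were also frequent and lie outside the printed capitals. Hist1h2ab and Hist3h2a are printed because one shares most of its coding sequence with other members and the other does not.
Hist1h2ab, bases 182 to 241, chr13:23843183-23843242, plus strand: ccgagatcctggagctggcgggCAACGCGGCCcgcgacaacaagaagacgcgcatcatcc
Hist3h2a, bases 182 to 241, chr11:58768421-58768480, plus strand: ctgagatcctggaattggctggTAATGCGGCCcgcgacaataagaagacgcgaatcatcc
Hist1h2ab, bases 305 to 364, chr13:23843306-23843365, plus strand: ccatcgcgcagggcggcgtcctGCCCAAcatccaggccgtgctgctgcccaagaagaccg
Hist3h2a, bases 305 to 364, chr11:58768544-58768603, plus strand: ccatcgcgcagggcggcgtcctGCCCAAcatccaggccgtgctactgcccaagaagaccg

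The libraries held 4271306 mapped reads in ESCs and 4399729 in NPCs, of which 81.6% and 86.6% carried 48 nt found at a single place in mm9. Over the 14859 genes with at least 10 reads in both libraries together, the log2 ratio (NPC over ESC) had a median of 0.34, so a member at 0 stood 0.34 below the typical gene. Of 11 pluripotency markers, 8 were more than 2-fold lower in the NPC library and 1 (Lin28a, 425 and 953 reads) more than 2-fold higher. Over all genes these shares were 12.8% and 24.6%. Of 9 neural progenitor markers found in the annotation 6 had enough reads, 2 of these were more than 2-fold higher in NPCs, and the defining markers were sparse, with 1 and 12 reads of Pax6, 1 and 22 of Zic1 and 0 and 2 of Fabp7 in the ESC and the NPC library. The summed level of the neural list was 88.3 and 110 RPM (reads scaled to the mapped total of the library). Extraembryonic endoderm markers were more than 2-fold higher in NPCs for 9 of 10 genes, with a summed level of 328 RPM in ESCs and 7787 in NPCs. Fibroblast markers, which would mark the feeder layer, summed to 44.0 and 58.0 RPM. Of 5 fibroblast markers with enough reads 1 was more than 2-fold lower and 1 more than 2-fold higher, and Lum had 0 reads in both. Whether the other cell types marked by these genes had a part in the histone results was not tested. In bulk RNA, fewer cells of a type and less RNA per cell cannot be told apart.

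Reads of H2B mRNA were much fewer in the NPC library, while those of H2A mRNA differed less. Exon reads on the gene strand of the 18 H2B genes numbered 38836 in ESCs (0.909% of the library) and 10490 in NPCs (0.238%), a ratio of NPC to ESC of 0.262 (0.257 to 0.268) after scaling to the library totals. The 19 H2A genes held 13965 reads in ESCs (0.327%) and 11053 in NPCs (0.251%), a ratio of 0.768 (0.749 to 0.788). With coding parts of similar length, there were 2.78 H2B reads for each H2A read in ESCs and 0.949 in NPCs. Antisense reads made up at most 0.0644% of the reads of either family in either library.

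Over all reads, the difference between the families was seen gene by gene. Log2 ratios add 1 read per library and use genes with at least 10 reads, which all 19 H2A genes and 17 of the 18 H2B genes reached. Hist2h2be had 1 read in ESCs and 4 in NPCs. Of the H2B genes, 16 of 17 were more than 2-fold lower in NPCs, where 12.8% of all genes were, and of the H2A genes 3 of 19. The median log2 ratio was -1.96 for H2B (genes from -2.63 to -0.64) and -0.48 for H2A (from -1.71 to 0.44). Relative to the median gene the medians were -2.29 and -0.81. No member was more than 2-fold higher in NPCs, as 24.6% of all genes were. When each start position was counted only once, 1 of 19 H2A and 1 of 17 H2B genes were more than 2-fold lower. The share of all genes was not computed by this count. The ratio was then 0.632 (0.590 to 0.677) for H2B and 0.727 (0.672 to 0.787) for H2A, with overlapping intervals. Median log2 ratios by this count were -0.68 and -0.46. In ESCs the 38836 H2B reads began at 2072 start positions, and in NPCs the 10490 reads at 1349. These short genes offer a limited number of positions, so a count of each start once can draw ratios toward 1. It cannot show how much of the H2B difference, or of the difference between the families, rests on positions with many reads. At such positions PCR copies and frequent starts cannot be told apart.

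**Figure D1:**
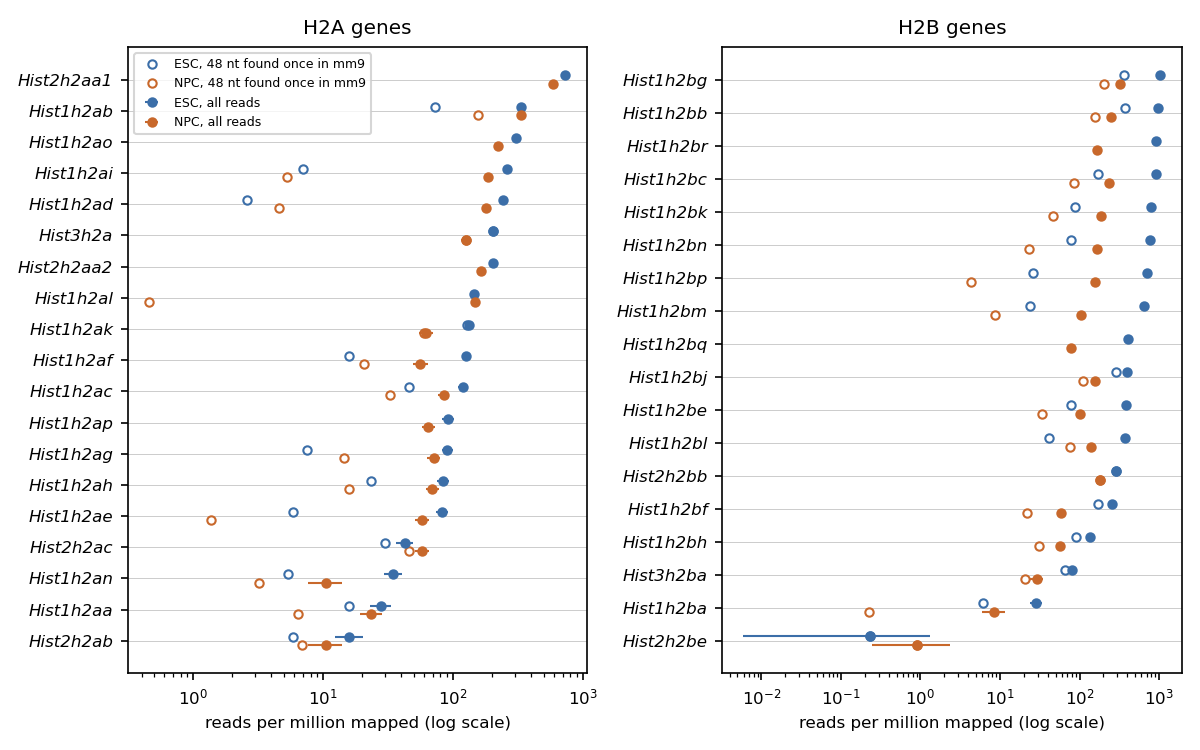
RPM (log axis) of each H2A gene (left) and H2B gene (right) in the ESC library (blue) and the NPC library (orange), 1 library each. Filled points are all reads with exact 95% counting intervals and open points the reads whose 48 nt occur once in mm9, not drawn where there are none; the H2B genes from Hist1h2bg to Hist1h2ba lie to the left in NPCs, while many H2A genes lie close together.

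Among the H2B genes, Hist1h2bg had the most reads in the ESC library, 4397 against 1403 in NPCs, a log2 ratio of -1.69. Hist1h2bb followed with 4185 and 1084 reads (log2 ratio -1.99) and Hist1h2br with 3929 and 720 (-2.49). Hist1h2bc had 3863 and 1025 reads (-1.96) and Hist1h2bk 3415 and 814 (-2.11). All 5 were more than 2-fold lower in the NPC library, as 12.8% of all genes were. Hist1h2br had no read of unique sequence, so its counts depend on how reads were placed between it and its copy Hist1h2bq. The lowest ratio over all reads belonged to Hist1h2bm, with 2739 and 455 reads (-2.63), and the ratio nearest to 0 to Hist2h2bb, with 1224 and 806 (-0.64). Per length of the annotated exons, Hist1h2bb had 2089 RPKM (RPM per 1000 exon bases) in ESCs and 525 in NPCs, and Hist1h2bg 1666 and 516.

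Among the H2A genes, Hist2h2aa1 had 3082 reads in ESCs and 2576 in NPCs (log2 ratio -0.30) and Hist1h2ab 1429 and 1467, a ratio of 0.997 (0.926 to 1.07). Hist1h2ao had 1315 and 973 reads (-0.48), Hist1h2ai 1114 and 821 (-0.48) and Hist1h2ad 1037 and 795 (-0.43). The ratios of these 5 genes ran from 0.715 in Hist1h2ai to 0.997. The 3 H2A genes more than 2-fold lower were Hist1h2an (148 and 46 reads, -1.71), Hist1h2af (542 and 247, -1.17, named after its values were seen) and Hist1h2ak (570 and 272, -1.11). Hist2h2ac was the H2A gene with the highest ratio, 182 and 255 reads (0.44).

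Hist1h2aa and Hist1h2ba, a neighbouring H2A and H2B gene known for their expression in testis, were detected at low levels. Hist1h2aa had 119 reads in ESCs and 103 in NPCs, a ratio of 0.840 (0.639 to 1.10). Hist1h2ba had 122 and 37 reads, a ratio of 0.294 (0.198 to 0.428). Of these, 68 and 28 reads of Hist1h2aa and 26 and 1 of Hist1h2ba had a sequence found once in mm9, and the other reads placed on them also matched other places.

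Most reads of these genes could not be assigned to a single copy. Reads of unique sequence made up 17.4% of the H2A reads in ESCs and 19.8% in NPCs, and 23.7% and 42.1% of the H2B reads. For H2B a further 74.0% and 54.6% of the reads matched several places that were all H2B members, so that 97.8% in ESCs and 96.8% in NPCs matched no place outside the family. For H2A the reads confined to the family made up 48.8% and 57.5%. The H2A sequences were also present in the annotated pseudogenes Gm11336, to which 49.4% (ESC) and 41.5% (NPC) of the H2A reads matched, and Hist1h2aj, with 31.1% and 16.8%, and in H2afx, a replacement H2A variant, with 23.1% and 6.78%. The H2A total is thus less surely from the family than the H2B total.

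The 19 H2A genes had 17 distinct coding sequences but 10 distinct proteins, with 9 genes encoding 1 protein, and the 18 H2B genes had 17 coding sequences and 11 proteins. The identical pairs showed how reads were placed. Hist2h2aa1 received 78.0% of the reads placed on it and its copy Hist2h2aa2 in ESCs (76.6 to 79.2%) and 78.2% in NPCs. Hist1h2ao took 77.1% and 77.4% of the reads shared with Hist1h2ap, and Hist1h2br 69.3% and 67.4% of those shared with Hist1h2bq. None of these 6 genes had a read of unique sequence, so only the sum of each pair can be read. The pair sums gave ratios of 0.809 for Hist2h2aa1 with Hist2h2aa2, 0.716 for Hist1h2ao with Hist1h2ap and 0.183 for Hist1h2br with Hist1h2bq.

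Windows of 48 bases that occur once were rare in the coding parts, with a median over the 37 genes of 17.3%, and 8 genes had none. From the stop codon to the processed end the median was 100%, and 28 of 35 genes had a higher share there than in the coding part. Hist2h2bb had only unique windows, and Hist3h2a had 87.3% in its coding part.

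Reads of unique sequence gave a wider range. With at least 10 such reads, 10 of 15 H2B genes and 3 of 14 H2A genes were more than 2-fold lower in NPCs, against 12.2% of all genes, and 1 H2A gene and 0 H2B genes were more than 2-fold higher, against 26.1%. Median log2 ratios were -1.40 for H2B and -0.44 for H2A. The H2A gene that was higher was Hist1h2ab, with 309 unique reads in ESCs and 683 in NPCs (1.10), although its total differed by less than the counting error. Hist1h2ag had 32 and 64 (0.94) and Hist2h2ac 129 and 203 (0.61). Lowest among H2A genes with at least 50 unique reads were Hist1h2aa (-1.29), Hist1h2ak with 550 and 264 (-1.10) and Hist3h2a with 871 and 552 (-0.70). For H2B the unique reads of Hist1h2bl were higher in NPCs, 174 and 332 (0.89), and those of Hist2h2bb (-0.64) and Hist1h2bg (1567 and 895, -0.85) differed least among the rest. The lowest with at least 50 unique reads were Hist1h2bf with 737 and 97 (-2.96), Hist1h2bp with 112 and 19 (-2.54) and Hist1h2bn with 335 and 101 (-1.76).

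The ratios differed with where a read started along the mRNA. The processed end was taken as 5 bases behind the stem-loop, over the 18 H2A and 17 H2B genes that have one, on the unspliced gene. H2B reads that started more than 150 bases before it numbered 36054 in ESCs and 7434 in NPCs, a ratio of 0.200 (0.195 to 0.205), whereas those that started in the last 150 bases numbered 5474 and 7062, a ratio of 1.25 (1.21 to 1.30). For H2A the distant starts numbered 4618 and 1268, a ratio of 0.267 (0.250 to 0.284), and the near ones 8705 and 9111, a ratio of 1.02 (0.987 to 1.05). The distance of 150 bases was chosen after the start positions had been seen. Over all reads both families were thus lower in NPCs in the distant part, and neither sum was lower in the last part. With each start position counted once the gap was much smaller, with distant ratios of 0.589 for H2A and 0.557 for H2B (0.514 to 0.603). The near ratios were 0.871 (0.776 to 0.978), which is lower in NPCs, and 0.946 (0.826 to 1.08). This count has the limit given above, since the number of start positions in short genes is bounded.

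**Figure D2:**
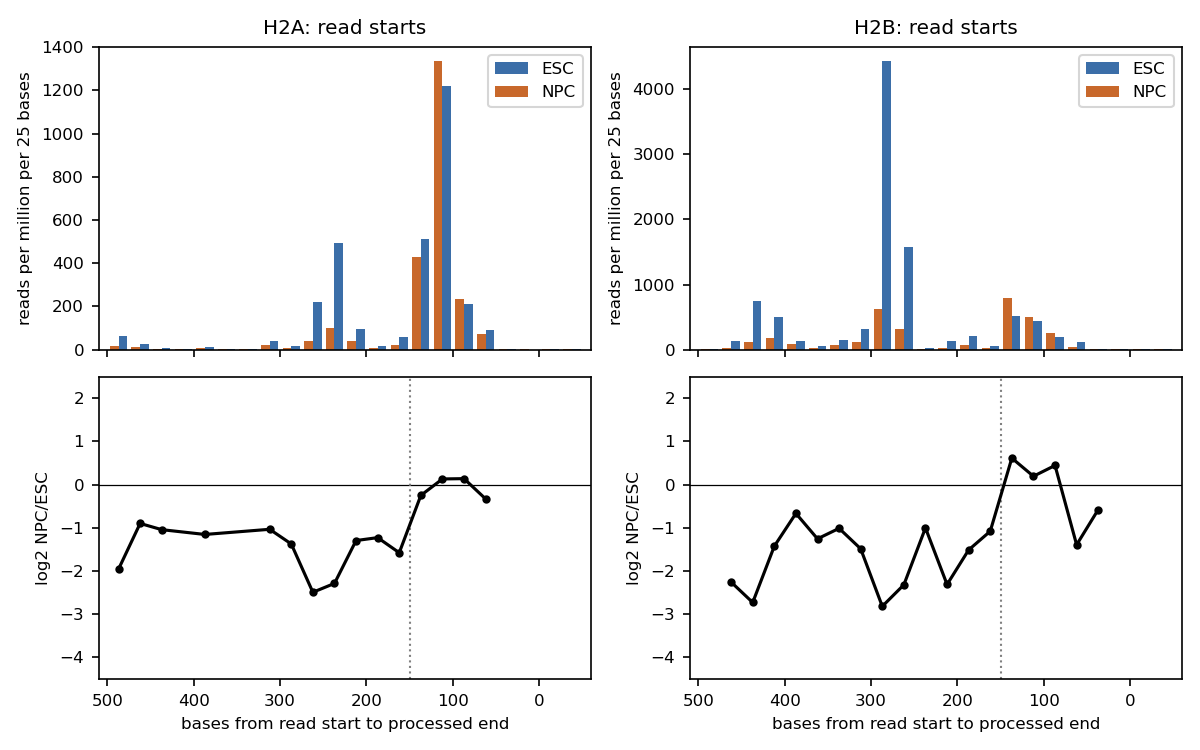
Starts of all reads by distance from the processed end (x axis, in bases, with the 3′ end on the right) for H2A (left) and H2B (right). Upper panels show RPM in bins of 25 bases in ESCs (blue) and NPCs (orange); lower panels show the log2 ratio of NPC to ESC, with 1 read added, for bins of at least 50 reads, and the dotted line stands at 150 bases, left of which the points plotted lie below 0.

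The families differed in how their reads were split between these parts. In ESCs 65.3% of the H2A reads (64.5 to 66.1%) started in the last 150 bases, but 13.2% of the H2B reads (12.9 to 13.5%). In NPCs the shares were 87.8% and 48.7%. In the distant part there were 7.81 H2B reads per H2A read in ESCs and 5.86 in NPCs, and in the last part 0.629 and 0.775. Counted on the same unspliced genes, both parts together with the reads behind the processed end gave 3.11 and 1.40. Without Hist2h2bb the values in the last part were 0.335 and 0.343, and the near share of the H2B reads was 7.76% in ESCs and 32.4% in NPCs.

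Over all reads, bins of 25 bases showed a step at this distance. H2A starts 125 to 149 bases before the end numbered 2184 and 1891 (log2 ratio -0.25), and those at 150 to 174 bases 248 and 85 (-1.58). H2B starts in the same bins numbered 2205 and 3474 (0.61) and 239 and 116 (-1.08), but 1910 and 3169 of the starts in the first of these bins were at base 314 of Hist2h2bb alone. The lowest H2B bin, at 275 to 299 bases, held 18925 and 2766 starts (-2.82), and the lowest H2A bin of over 50 reads, at 250 to 274 bases, 938 and 171 (-2.49). Some bins of the last part were lower in NPCs too, most of all H2B starts at 50 to 74 bases, with 519 and 203 (-1.39). By reads of unique sequence the step was less plain. For H2B the log2 ratios were 0.61 at 125 to 149 bases, which includes base 314 of Hist2h2bb, and -0.32 at 150 to 174 (113 and 93 starts). For H2A they were -0.82 and -2.07 in the same bins. At 175 to 199 bases they were -0.04 for H2B (7 and 7 starts) and 0.46 for H2A (11 and 16).

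The same order held for single genes. With at least 20 reads in each part, 16 of 16 H2A genes and 16 of 16 H2B genes had a lower ratio in the distant part than in the last 150 bases. In the distant part 17 of 17 H2A genes and 17 of 17 H2B genes were lower in NPCs, with log2 ratios from -2.89 to -0.78 and from -3.08 to -0.62. In the last part 10 H2A genes were lower and 7 higher, and 10 H2B genes were lower and 6 higher, with no gene of either family more than 2-fold lower on the log2 scale with 1 read added. Hist1h2bf was at that limit, with 173 and 89 near starts and a ratio of 0.499. By reads of unique sequence alone the order held in 5 of 6 H2A and 10 of 10 H2B genes, and the ratios of the summed reads were 0.398 and 1.07 for H2A and 0.311 and 1.36 for H2B in the distant and the last part.

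**Figure D3:**
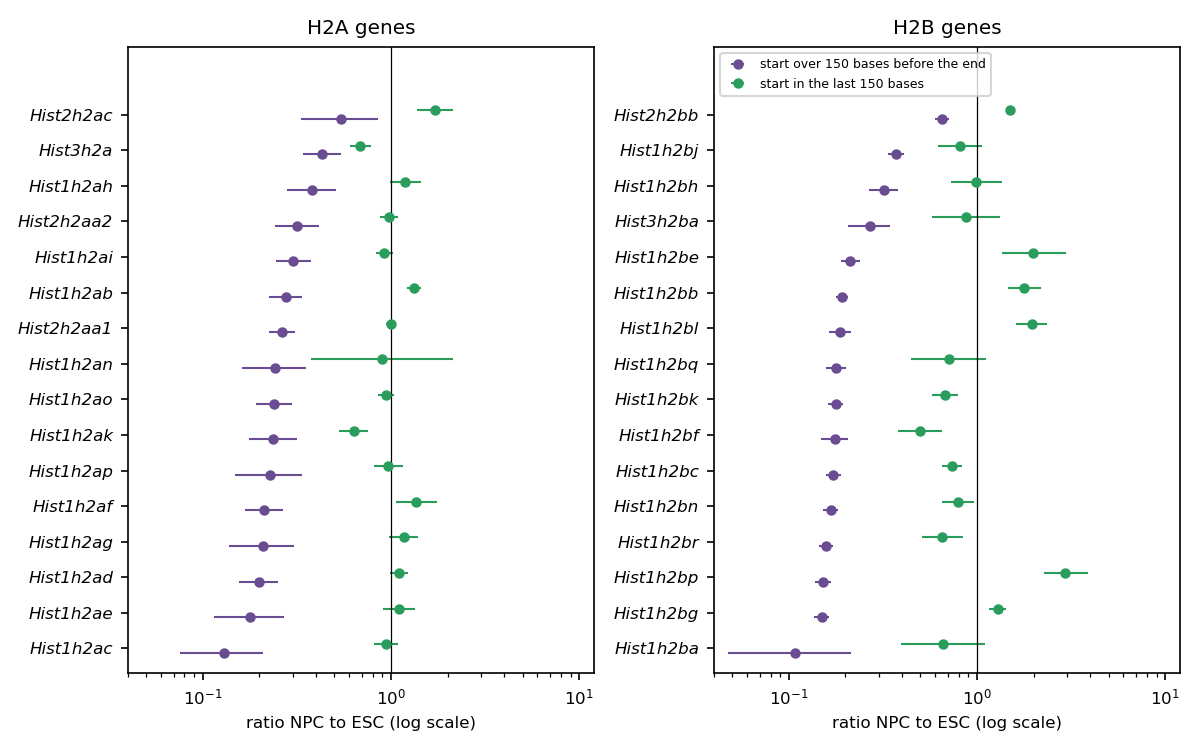
Ratio of NPC to ESC (log axis) for each H2A gene (left) and H2B gene (right) with at least 20 reads in both parts, for reads that start over 150 bases before the processed end (purple) and in the last 150 bases (green). Bars are exact 95% counting intervals for 1 library per cell type and the line marks equal levels; the purple point lies left of the green point for each gene.

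Hist1h2bg showed the split clearly. It had 3795 distant starts in ESCs and 584 in NPCs, a ratio of 0.149, and 598 and 793 near the end, a ratio of 1.29. Hist1h2bb had 4027 and 794 distant starts (0.191) and 158 and 290 near ones (1.78), and Hist1h2bl 1443 and 279 (0.188) and 165 and 331 (1.95). Since the near starts of Hist1h2bl were all of unique sequence and nearly all of its distant starts were not, its higher unique count in NPCs came from the last 150 bases. Hist1h2bm had 2737 and 455 distant starts and only 2 and 0 near ones.

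Among the H2A genes, Hist1h2ab had 451 and 128 distant starts (0.276) and 978 and 1339 near ones (1.33), which together gave equal totals. Hist2h2aa1 had 786 and 214 distant starts (0.264) and 2296 and 2359 near ones (0.997). Hist3h2a, whose reads were nearly all unique, had 250 and 111 (0.431) and 609 and 432 (0.689), and Hist1h2ak 246 and 60 (0.237) and 324 and 212 (0.635). Both of these were lower in both parts.

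Reads began at few positions. H2B bases 154 and 156, shown in the sequences above, were the leading sites in ESCs and in both libraries together, with 9759 starts in ESCs and 1363 in NPCs at base 154 (ratio 0.136) and 9535 and 1479 at base 156 (0.151). These 2 bases took 23.5% and 22.9% of all H2B starts in ESCs and 9.34% and 10.1% in NPCs. Starts there were placed on 16 and 17 of the 18 genes. In ESCs and NPCs only 997 and 207 starts at base 154, and 855 and 299 at base 156, were of unique sequence. A read that matches several copies does not show that the gene it was placed on used the site. In the H2A genes the base with the most starts in both libraries together was 332, with 833 and 1690 starts (1.97), then base 330 with 996 and 936 (0.912) and base 327 with 700 and 1176 (1.63), all near the end. Upstream, base 213, which led in ESCs alone, had 1147 and 98 (0.0829), base 210 had 579 and 95 (0.159) and base 204 had 482 and 140 (0.282). In NPCs alone base 314 led among H2B starts, with 3185 (21.8%). A site used in 1 gene was base 22 of Hist1h2bb, with 957 and 233 starts, all of unique sequence.

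Hist2h2bb had a start site of its own kind. At its base 314, 1910 reads started in ESCs and 3169 in NPCs, out of 1928 and 3185 at that base over all H2B genes. The annotation splices this gene inside its coding part, so the annotated exons, which gave 1224 and 806 reads, leave out the stretch with this site. Following the reading frame on the genome gave 381 bases to a stop codon, with a stem-loop behind it. Counted this way the gene had 3924 reads in ESCs and 4854 in NPCs, with 1368 and 919 distant starts (0.652) and 2556 and 3935 near ones (1.49), all of unique sequence. It was thus lower in NPCs by its annotated exons and higher by the unspliced gene. Without it, the H2B ratio in the last 150 bases was 1.04 (0.989 to 1.09) in place of 1.25, and over all exon reads 0.250.

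By region, 91.6% of H2B starts in ESCs and 95.3% in NPCs lay in the coding part, and 8.10% and 3.63% in the 100 bases before it. The corresponding shares for H2A were 93.9% and 95.02%, and 3.66% and 1.88%. From the stop codon to the processed end there were 0.195% and 0.411% of the H2B starts and 2.12% and 2.49% of the H2A starts. A read of 48 nt that ends at the processed end must start well before it, which limits starts in this region.

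Few reads passed the processed end. Reads whose last base lay behind it, up to 500 bases on or to the next gene, numbered 56 of 41567 for H2B in ESCs, or 0.135% (0.102 to 0.175%), and 102 of 14589 in NPCs, or 0.699% (0.570 to 0.848%). For H2A the shares were 0.404% (0.304 to 0.527%), or 54 of 13370, and 0.651% (0.506 to 0.825%), or 68 of 10443. Most of these reads lay wholly behind the end, 39 and 93 for H2B and 47 and 64 for H2A, and 17 and 9 H2B reads and 7 and 4 H2A reads crossed it. The H2B intervals did not overlap, although the share is taken over a total that was lower in NPCs. This was not particular to H2B. In ESCs and NPCs the shares were 0.174% and 0.671% for H1 genes, 0.147% and 0.648% for H3 and 0.115% and 0.313% for H4, also without overlap. Hist1h2bg alone had 9 reads behind its end in ESCs and 48 in NPCs.

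Of the H2A and H2B genes, 12 H2A-H2B pairs faced apart with 278 to 334 bases between their start codons. The H2B gene had more reads than its H2A partner in 11 of 12 pairs in ESCs and in 7 in NPCs, and in 11 of 12 the number of H2B reads per H2A read was lower in NPCs. These counts use all reads, most of which match several members. The pairs Hist1h2ao with Hist1h2bq and Hist1h2ap with Hist1h2br are identical copies without unique reads, so they cannot be counted apart. The Hist1h2ae and Hist1h2bg pair had 351 and 4397 reads in ESCs and 256 and 1403 in NPCs. Hist1h2an and Hist1h2bp, the pair with the most H2B reads per H2A read, had 148 and 2970 reads in ESCs and 46 and 690 in NPCs. Hist1h2ad and Hist1h2bf were nearly equal in ESCs, with 1037 and 1108 reads, and had 795 and 260 in NPCs. The pair that went the other way was Hist2h2ac with Hist2h2be, where the H2B gene had nearly no reads. In the distant part alone, Hist1h2ae had 152 and 28 starts and Hist1h2bg 3795 and 584, and Hist1h2ad 414 and 85 and Hist1h2bf 933 and 169, so that both partners of these pairs were lower in NPCs.

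Promoters from 250 bases before to 50 bases after the start, taken from RefSeq (GRCm38.p6), were matched for 34 of the 37 genes. The letters CCAAT, on either strand, stood in 18 of 18 H2A and 16 of 16 H2B promoters and in 39.0% of the 17492 protein-coding promoters. TATAAA stood in 11 H2A and 8 H2B promoters, against 13.3% of all. The octamer ATTTGCAT, which binds the factor OCT1 and is known from H2B promoters, stood in 7 of 18 H2A and 6 of 16 H2B promoters, against 1.71% of all, and since facing genes share a promoter region the counts of both families are linked. The octamers of H2B genes with high, low and differing ratios are printed with the motif in capitals, on the gene strand of GRCm38.p6.
Hist1h2bg, 59 bases before the start, chr13:23571330-23571359: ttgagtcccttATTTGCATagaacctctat
Hist1h2bb, 90 bases before the start, chr13:23746633-23746662: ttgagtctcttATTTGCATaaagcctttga
Hist2h2bb, 48 bases before the start, chr3:96269641-96269670: tgtgaaacctcATTTGCATacaagctctat
Hist1h2bm, 25 bases before the start, chr13:21722008-21722037: ctctcgtctctATTTGCATaacagcgtgta

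The 4 genes were picked from the 6 H2B promoters with the octamer. Their log2 ratios over all exon reads ran from -2.63 in Hist1h2bm to -0.64 in Hist2h2bb. On the unspliced gene Hist2h2bb had 3924 reads in ESCs and 4854 in NPCs. Whether the octamer bears on these ratios was not tested.

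Other histone families shared the direction. The ratio of summed reads was 0.515 for H1, 0.486 for H3 and 0.368 for H4, between those of H2A and H2B. In the distant part the ratios were 0.437 for H1, 0.318 for H3 and 0.287 for H4, and in the last 150 bases 0.680, 0.540 and 0.431. Over all reads the gap between the parts was smaller than in H2A and H2B. For H2A the gap was not particular by other counts. For H2B it stayed the widest by reads of unique sequence, with 0.311 in the distant and 1.36 in the last part. With each start counted once the H2B ratios were 0.557 and 0.946. Reads of unique sequence gave H3 ratios of 0.282 in the distant and 0.762 in the last part, beside 0.398 and 1.07 for H2A, and with each start counted once the H3 ratios were 0.522 and 0.832, beside 0.589 and 0.871. Over 12639 other protein-coding genes, the ratio was 1.25 in the last 150 exon bases and 1.26 in the rest. For the 598 of these with at most 1000 exon bases it was 0.990 (0.960 to 1.02) in the last part and 0.764 (0.755 to 0.772) in the rest, so the same direction was seen in short genes with a smaller gap. Fragment length in each library, which could bear on starts near an end, was not tested.

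**Figure D4:**
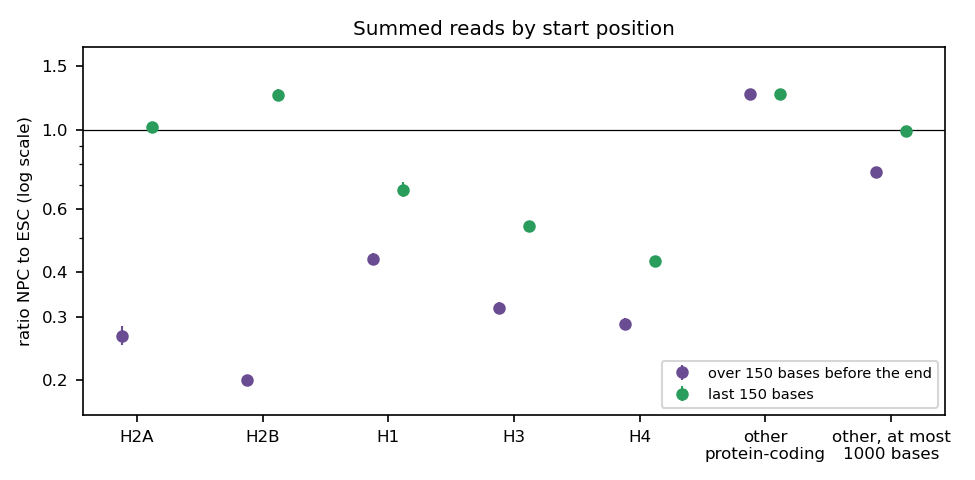
Ratio of NPC to ESC (log axis) of the summed reads of each histone family, of the other protein-coding genes and of those with at most 1000 exon bases, for reads that start over 150 bases before the end (purple) and in the last 150 bases (green). Bars are exact 95% counting intervals, often smaller than the point; all reads are plotted, by which H2A and H2B show the widest gap among the histone families and the other protein-coding genes as a whole show none, while by unique reads or with each start counted once the gap of H3 is like that of H2A.

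The mRNAs of replacement H2A variants are made outside S phase as well. Of 7 such genes 6 had enough reads, with a median log2 ratio of -0.82, and 4 of the 6 were lower in NPCs. H2afy, with 623 ESC and 305 NPC reads, was more than 2-fold lower. H2afy2, with 18 and 41, was more than 2-fold higher. Over all genes the shares past these limits were 12.8% and 24.6%. H2afz had 290 and 561 reads. H2afx, which has a stem-loop and is known to give a polyadenylated mRNA too, had 1211 and 656 exon reads. Behind its stem-loop lay or ended 22.2% of its reads in ESCs (19.7 to 24.8%) and 71.3% in NPCs (67.2 to 75.1%), far above the shares of the members. Of these reads 229 of 230 and 372 of 372 were of unique sequence. Of its coding starts only 41 of 463 and 9 of 97 were, so the shares depend on how reads were placed. By reads of unique sequence alone the shares were 37.2% and 85.7%.

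The factors that make and handle these mRNAs were read from lists of genes. Of 16 genes for histone transcription and processing, 0 were more than 2-fold lower and 1 (Ccne2, a cyclin of S phase entry) was more than 2-fold higher in NPCs, with a median log2 ratio of 0.38, close to that of all genes. Slbp, which encodes the stem-loop binding protein, had 153 and 262 reads (0.73), and Npat, the coactivator of histone genes, 329 and 436 (0.36). Of 9 chaperones and importers of H2A-H2B, 0 were more than 2-fold lower and 2 more than 2-fold higher, with a median of 0.37. These were Nap1l1, with 288 and 1341 reads (2.17), and Ncl, with 399 and 1026 (1.32). Of 20 S phase genes 11 were lower in NPCs, 0 of them more than 2-fold, and 1 (Tyms, 47 and 121 reads, 1.30) was more than 2-fold higher, with a median of -0.01. Over all genes the shares more than 2-fold lower and higher were 12.8% and 24.6%. The poly(A) mRNAs of these genes are seen here only as far as they escaped removal.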

How the data were processed

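The authors cut NPA RNA with RNase III, ligated adaptors, took products of 150 to 250 bp from a gel after reverse transcription, used 15 PCR cycles, sequenced 50 nt on SOLiD, aligned to mm9 with Bowtie, with up to 2 mismatches in a 45-nt seed and 1 placement kept, and removed mitochondrial, ribosomal and repeat reads. The version of Bowtie is not given in the sources used here. The deposited files list each placement with strand and 48 nt of sequence, and hold no counts, so counts were made here from 1 library per cell type.

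Gene counts are reads overlapping exons on the gene strand by at least 1 base. Each 48-mer was looked up on both strands of mm9. Stem-loops were searched within 250 bases of the stop codon, with at least 13 of 16 consensus bases and 5 pairs. RPM uses the library totals. One read equals 0.234 RPM (ESC) or 0.227 RPM (NPC). Counts have exact Poisson, shares Clopper-Pearson and ratios conditional binomial intervals. Since 1 placement was kept for a repeated sequence, levels of near-identical copies are uncertain.

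The members and lists were chosen with earlier results of these data known. Named genes are, per family, the 5 with the most ESC reads, the 3 highest and 3 lowest log2 ratios among those with at least 50 unique reads, Hist1h2aa, Hist1h2ba, Hist1h2bm, Hist1h2bb, divergent pairs, and genes with at least 50 unique reads past the end. Counting, sequence lookup and intervals were tested on simulated data. Alternatives are given in the closing section. Software was numba 0.67.0, SciPy 1.17.1, matplotlib 3.10.9 and NumPy 2.4.6 under Python 3.11.15.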

Additional observations from a re-analysis of the deposited data

How the results depend on the processing

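No paired analysis was possible because each cell type had 1 library, and no replicate could be left out. Ratios of NPC to ESC for H2A and H2B were 0.875 and 0.465 with reads of unique sequence, 0.727 and 0.632 with each start position counted once, and 0.609 and 0.208 with scaling by the median of ratios over genes. With the 5′ base in the coding part the H2B ratio was 0.271. Median log2 ratios were -0.81 for H2A and -2.29 for H2B by the median of ratios, and for H2B -1.40 with unique reads and -0.68 with each start once. Of 15 H2B genes 10 were more than 2-fold lower with unique reads, and with each start once 1 of 19 H2A and 1 of 17 H2B genes. The following were added after the data had been seen. Starts over 150 bases before the end gave ratios of 0.267 and 0.200, medians of -1.98 and -2.49 and 16 of 18 H2A genes more than 2-fold lower. Starts in the last 150 bases gave ratios of 1.02, whose interval includes 1, and 1.25. Their medians were -0.020 and -0.24, with 0 genes more than 2-fold lower in either family. For counts of genes with each start once or by part of the mRNA, the share of all genes was not computed. The unspliced loci gave an H2B ratio of 0.341. Without Hist2h2bb it was 0.250, and in the last 150 bases 1.04, whose interval includes 1. In the distant and the last part, unique reads gave 0.398 and 1.07 for H2A and 0.311 and 1.36 for H2B, and each start once gave 0.589 and 0.871, and 0.557 and 0.946. Shares past the end for H2A were 1.55% and 2.12% with unique reads and 2.92% and 5.19% with each start once, in ESCs and NPCs, and for H2B 0.369% and 1.07%, and 1.89% and 4.45%. Other alternatives (shortened intervals left out, 0.5 read added, minimum of 50 or 1 reads, 20 bases behind the stem-loop, 10 bases reached) stayed within the counting interval or within 1.5 times the count. Depth limits single genes, since Hist2h2be had under 10 reads and 6 genes had no unique read.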
